A study of Mus musculus with 6 samples.

Results

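The fibril-forming collagens are 10 genes of the 45777 listed in the expression table: Col1a1, Col1a2, Col3a1, Col5a1, Col5a2, Col5a3, Col11a1, Col11a2, Col24a1 and Col27a1. They were taken from the table by symbol, as a list drawn up with earlier results of these data known and without Col2a1, the fibrillar collagen of cartilage, which was lower in the footpad and is described at the end. All 10 had enough reads to be among the 17210 genes tested. RNA had been sequenced from tumors that formed when B16F10 cells, a mouse melanoma line, were implanted either in the hind footpad or in the flank skin. There were 3 tumors for each site, 1 library per tumor, and the question was how growth at the weight-bearing site changes transcription. All hosts carried Foxn1-/-, which leaves mice without a thymus and hence largely without T cells, and were 8 weeks old by the labels. The grafted cells of both sites were of the same line, and by the methods it was B16F10 cells, isolated where they had been implanted, that gave the RNA. How host cells were separated is not given in the sources used here, and markers of host cell types were detected in the libraries.

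Fibrillar collagens are the proteins of the banded fibers that give skin, tendon and bone their tensile strength. Each molecule is a triple helix of 3 chains, and the chains come from different genes: Col1a1 and Col1a2 supply type I, Col3a1 alone supplies type III, Col5a1, Col5a2 and Col5a3 supply type V, which starts and limits the width of type I fibrils, and Col11a1 and Col11a2 supply type XI, the matching regulator in cartilage. Col24a1 and Col27a1 encode further members of the family, known mostly from developing bone and cartilage. In skin and in the stroma of tumors, fibroblasts are the main producers of types I, III and V. Because these are bulk samples, more cells of a type and more RNA per cell cannot be told apart.

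The upstream sequences are shown for 4 of the genes that differed most between the sites, 1 of type I, 1 of type III and 2 of type V, to let their make-up be read beside the values that follow. Each is the 250 bases before the transcript start that RefSeq's promoters use on GRCm38.p6, written in the direction of transcription. For Col5a1 and Col5a3 this start lies inside the outer boundary of the gene given below, so that the last 44 and 50 bases of the stretch are within it. Capitals mark 4 motifs on either strand. These are CCAAT with its reverse ATTGG, then TATAAA with its reverse TTTATA, then GGGCGG with its reverse CCGCCC, and finally GGAATG with its reverse CATTCC, the core to which TEAD factors bind. No marked match overlaps another.
Col1a2, chr6:4505368-4505617, plus strand: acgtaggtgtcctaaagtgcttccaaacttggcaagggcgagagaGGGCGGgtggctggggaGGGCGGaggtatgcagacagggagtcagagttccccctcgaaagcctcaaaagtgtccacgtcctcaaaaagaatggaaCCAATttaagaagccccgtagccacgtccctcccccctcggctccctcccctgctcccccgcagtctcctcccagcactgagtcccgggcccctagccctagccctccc
Col3a1, chr1:45311288-45311537, plus strand: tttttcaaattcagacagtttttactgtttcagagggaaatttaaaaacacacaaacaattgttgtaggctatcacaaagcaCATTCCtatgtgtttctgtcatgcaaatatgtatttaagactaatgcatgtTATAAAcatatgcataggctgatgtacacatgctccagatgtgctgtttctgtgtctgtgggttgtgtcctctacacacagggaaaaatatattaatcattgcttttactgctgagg
Col5a1, chr2:27886175-27886424, plus strand: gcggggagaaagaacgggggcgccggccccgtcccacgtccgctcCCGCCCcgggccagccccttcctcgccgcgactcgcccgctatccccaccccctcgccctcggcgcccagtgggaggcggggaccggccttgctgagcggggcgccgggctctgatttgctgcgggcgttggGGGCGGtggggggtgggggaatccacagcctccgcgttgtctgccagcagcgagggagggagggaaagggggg
Col5a3, chr9:20815068-20815317, minus strand: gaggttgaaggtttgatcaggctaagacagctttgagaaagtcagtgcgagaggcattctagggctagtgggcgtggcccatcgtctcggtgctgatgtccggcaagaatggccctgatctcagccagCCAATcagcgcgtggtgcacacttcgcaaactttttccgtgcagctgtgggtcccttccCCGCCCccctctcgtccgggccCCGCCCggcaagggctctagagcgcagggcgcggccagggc
The Col1a2 stretch holds 1 CCAAT and 2 GGGCGG, and that of Col5a3 the same numbers. Col5a1 holds 2 GGGCGG and no other of the motifs, whereas Col3a1 holds 1 TATAAA and 1 GGAATG and no GGGCGG. Bases G and C make up 35.2% of the Col3a1 stretch and 76.4% of that of Col5a1, against a median of 52.4% over 32851 promoters. Of the 8 members in the RefSeq table, GGGCGG was present in 6, CCAAT in 3, TATAAA in 2 and GGAATG in 1, while 32.7%, 33.8%, 12.4% and 12.6% of all promoters held these motifs. No motif was present in all of the members in that table that were higher in the footpad. Col1a1 and Col5a2 had no entry.

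Most of the 10 genes rose in footpad tumors and none of the 10 was called lower, though Col11a2 had a negative log2 fold change of -0.77. The 7 members called higher were Col1a1, Col1a2, Col3a1, Col5a1, Col5a2, Col5a3 and Col27a1. A call needed a Benjamini-Hochberg adjusted p under 0.05 over all tested genes in edgeR's quasi-likelihood test and a fold change of at least 2. Of all tested genes 2.89% were called higher and 0.872% lower by the same rule. The median log2 fold change was 2.82 over the members and -0.00 over all tested genes. In CPM (counts scaled to library size), every footpad tumor lay above every flank tumor for the same 7 members, as was so for 17.5% of all tested genes, and no member had every footpad tumor below every flank tumor, as 14.9% of genes did. DESeq2 also called 7 members higher, with 6.71% of all genes called higher. The labels do not say whether footpad and flank tumors came from separate mice, and in other experiments of the study both sites of a mouse were implanted at the same time, so these tumors may share hosts. The p-values measure the spread between these tumors.

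**Figure D1:**
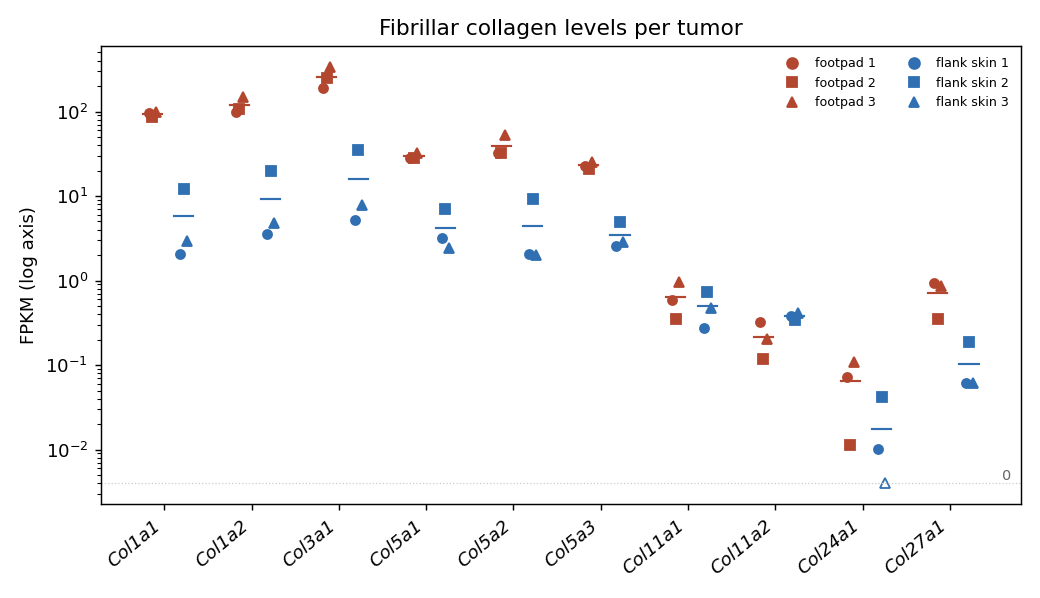
Level of each fibril-forming collagen in each tumor, in FPKM on a log axis; symbols are the 3 tumors of each site, short lines the site means, and the open symbol on the dotted line a value of 0. Col3a1 is highest at both sites, with means of 259.7 and 16.1 FPKM, and the last 4 genes lie under 1 FPKM in every tumor.

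Type I collagen was the first of the large differences. Col1a1 (gene 12842, chr11:94936224-94953042), which gives 2 of the 3 chains of the usual type I molecule, was at 94.8, 85.9 and 99.4 FPKM in footpad tumors 1, 2 and 3, and at 2.07, 12.2 and 2.98 FPKM in flank tumors 1, 2 and 3. FPKM is the number of fragments per kilobase of transcript scaled to sequencing depth, so that levels can be compared between genes. The footpad tumors were close to each other, and flank tumor 2 stood above the other two flank tumors but far below any footpad tumor. The means were 93.4 ± 6.87 and 5.73 ± 5.58 FPKM (SD, n = 3). In the fit on read counts the difference was 17.2-fold, a log2 fold change of 4.10 with a standard error of 0.62 (edgeR, adjusted p = 0.0206).

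Col1a2 (gene 12843, chr6:4505618-4541543), the partner chain, followed the same order. It was at 100.01, 108.0 and 148.3 FPKM in the footpad tumors and at 3.58, 19.5 and 4.76 FPKM in the flank tumors, with means of 118.8 ± 25.9 and 9.29 ± 8.90 FPKM (SD, n = 3). The groups did not overlap, and flank tumor 2 was again the highest of its site. The fold change was 13.4, or 3.74 on the log2 scale with a standard error of 0.61 (edgeR, adjusted p = 0.0237).

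Col3a1 (gene 12825, chr1:45311538-45349706), the single gene of type III collagen, had the highest level of the family in every tumor. It was at 188.4, 252.0 and 338.6 FPKM in the footpad and at 5.26, 35.1 and 7.93 FPKM in the flank. The means of 259.7 ± 75.4 and 16.1 ± 16.5 FPKM (SD, n = 3) did not overlap in their tumors. The log2 fold change was 4.08 with a standard error of 0.69, a 16.9-fold difference (edgeR, adjusted p = 0.0254).

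These 3 calls were lost without footpad tumor 1, footpad tumor 3 or flank tumor 3, as were most calls of the whole table. In these fits 0.145%, 0% and 0.201% of all tested genes were called higher, against 2.89% with all tumors. The adjusted p of Col1a1, Col1a2 and Col3a1 in edgeR was 0.0812, 0.0845 and 0.0845 without footpad tumor 1, 0.0887, 0.101 and 0.106 without footpad tumor 3, and 0.0805, 0.0887 and 0.0961 without flank tumor 3. Without flank tumor 2 their log2 fold changes were larger, at 5.16, 4.77 and 5.23. The direction was the same in all 6 fits that each left out 1 tumor.

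The type V genes also rose, with smaller fold changes. Col5a1 (gene 12831, chr2:27886381-28039510), which is in nearly all type V molecules, was at 28.2, 28.2 and 32.2 FPKM in footpad tumors and at 3.16, 7.01 and 2.44 FPKM in flank tumors. The 3 footpad values were nearly the same, and the means were 29.6 ± 2.32 and 4.20 ± 2.46 FPKM (SD, n = 3). The difference was 7.29-fold, with a log2 fold change of 2.87 and a standard error of 0.35 (edgeR, adjusted p = 0.0141). The call was lost without footpad tumor 1 (edgeR, adjusted p = 0.0611) and without footpad tumor 3 (0.0702).

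Col5a2 (gene 12832, chr1:45374331-45503282), the usual partner of Col5a1, was at 32.0, 32.5 and 53.2 FPKM in the footpad and at 2.07, 9.25 and 1.98 FPKM in the flank. Footpad tumor 3 and flank tumor 2 were each the highest of their site, and the sites did not overlap. The means were 39.2 ± 12.1 and 4.43 ± 4.17 FPKM (SD, n = 3). Its log2 fold change was 3.21 with a standard error of 0.59, or 9.23-fold (edgeR, adjusted p = 0.0321). The adjusted p in edgeR was 0.0998 without footpad tumor 1, 0.119 without footpad tumor 3, 0.0697 without flank tumor 1 and 0.0999 without flank tumor 3, and without flank tumor 2 the log2 fold change was 4.20. Col5a2 lies beside Col3a1 on chromosome 1, with 24624 bases and no other gene of the annotation between them.

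Col5a3 (gene 53867, chr9:20770050-20815117), the chain found in a rarer form of type V, had the smallest standard error of the rising genes. It was at 22.6, 21.0 and 25.5 FPKM in footpad tumors and at 2.60, 4.88 and 2.89 FPKM in flank tumors. Its coefficient of variation in CPM was 12.0% in the footpad and 27.5% in the flank, against 90.5% for Col1a1 in the flank. The log2 fold change was 2.77 with a standard error of 0.22, or 6.80-fold (edgeR, adjusted p = 0.00677). Only without footpad tumor 3, among the fits that left out 1 tumor, was its call lost (edgeR, adjusted p = 0.0541), and in that fit no gene of the whole table was called.

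The type XI genes did not pass the test in either direction. Col11a1 (gene 12814, chr3:114030479-114220756), which can also join type V chains outside cartilage, was at 0.582, 0.356 and 0.968 FPKM in footpad tumors and at 0.275, 0.733 and 0.480 FPKM in flank tumors. The sites overlapped, and the log2 fold change was 0.41 with a standard error of 0.44 and an approximate 95% interval from -0.45 to 1.27 (edgeR, adjusted p = 0.590). Col11a2 (gene 12815, chr17:34038919-34066684), its partner, was at 0.326, 0.118 and 0.205 FPKM in the footpad and at 0.384, 0.340 and 0.417 FPKM in the flank. It was the only member with a negative log2 fold change, -0.77 with a standard error of 0.44 and an approximate 95% interval from -1.63 to 0.10 (edgeR, adjusted p = 0.317). In FPKM every footpad tumor lay below every flank tumor, whereas in CPM the sites overlapped, footpad tumor 1 at 2.83 being above flank tumor 2 at 2.50.

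Col27a1 (gene 373864, chr4:63214009-63334991) rose from a low level. It had 383, 165 and 342 reads in the footpad tumors and 34, 89 and 34 reads in the flank tumors, or 0.930, 0.352 and 0.857 FPKM against 0.0608, 0.187 and 0.0611 FPKM. The lowest footpad tumor, number 2, was above the highest flank tumor, again number 2. The log2 fold change was 2.76 with a standard error of 0.61, or 6.76-fold (edgeR, adjusted p = 0.0481). This call lay close to the threshold: the adjusted p was 0.0502 in edgeR with upper-quartile scaling and 0.0545 in limma on log2(FPKM + 1), where the log2 fold change was 0.62. In edgeR it was 0.151 without footpad tumor 1, 0.147 without footpad tumor 3, 0.0997 without flank tumor 1 and 0.153 without flank tumor 3, and without flank tumor 2 the log2 fold change was 3.40.

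Col24a1 (gene 71355, chr3:145292472-145552013) was near the limit of detection. It had 29, 6 and 43 reads in the footpad tumors and 6, 19 and 0 reads in the flank tumors. A count of 0 in flank tumor 3 allows a level of up to 0.0479 CPM, counting error only, while footpad tumor 2 was at 0.0875 CPM and flank tumor 2 at 0.325 CPM. The sites overlapped, and a log2 fold change of 1.89 with a standard error of 1.21 had an approximate 95% interval from -0.48 to 4.27 (edgeR, adjusted p = 0.368). Without flank tumor 2 the log2 fold change was 3.33, and without flank tumor 3 it was 1.30, neither past the threshold.

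**Figure D2:**
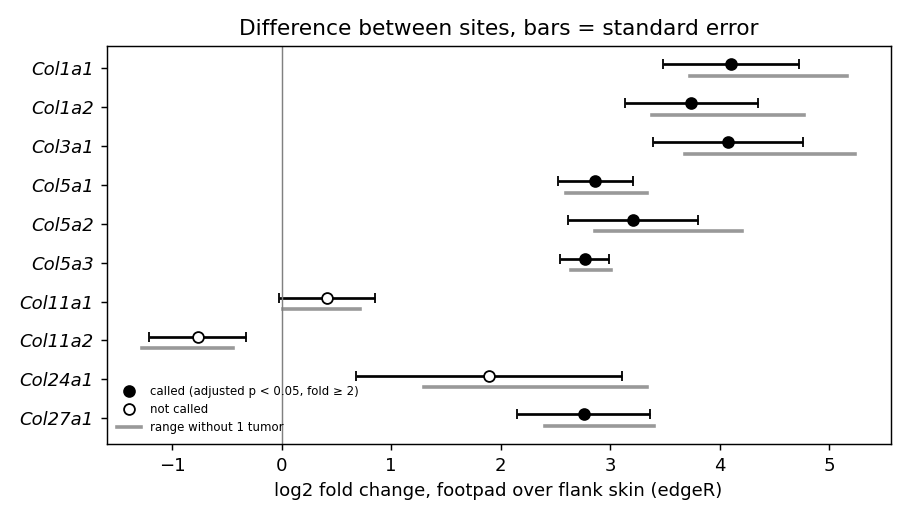
Log2 fold change of each gene between footpad and flank tumors in edgeR; points are the estimates from all 6 tumors, black bars 1 standard error either side, grey bars the range over the 6 fits that leave out 1 tumor, and filled points the genes called higher. The type I and III genes lie between 3.74 and 4.10, the type V genes between 2.77 and 3.21, and the type XI genes on either side of 0.

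Of the 10 genes, 3 overlap another annotated gene. The long non-coding RNA Gm35133 within Col24a1 had 0 reads in every tumor, and the microRNA gene Mir455 within Col27a1 had between 0 and 3 reads. Gm13372 at Col5a1 and Gm52743 at Col27a1 had no value here. How the counting treated reads shared by overlapping genes is not given in the sources used here.

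The summed level of the family and its make-up both differed between the sites. The 10 genes added up to 468.0, 528.5 and 699.4 FPKM in the footpad tumors and to 19.5, 89.2 and 23.9 FPKM in the flank tumors, so that the footpad mean of 565.3 FPKM was 12.8 times the flank mean of 44.2 FPKM. Without flank tumor 2, an alternative chosen after the values were seen, the ratio was 26.1. Types I and III together made up 81.9%, 84.4% and 83.8% of this sum in the footpad tumors and 56.0%, 74.8% and 65.5% in the flank tumors. Type V made up 17.7%, 15.5% and 15.9% in the footpad against 40.2%, 23.7% and 30.5% in the flank. The family was thus more weighted to types I and III in each footpad tumor than in any flank tumor. The other 4 genes together were 0.291 ± 0.126% of the sum in the footpad and 3.07 ± 1.40% in the flank (SD, n = 3). Flank tumor 2, which had the highest sum of its site, also had the make-up nearest to that of the footpad. These shares were compared as a description, with no test beyond that of the chain ratios below.

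**Figure D3:**
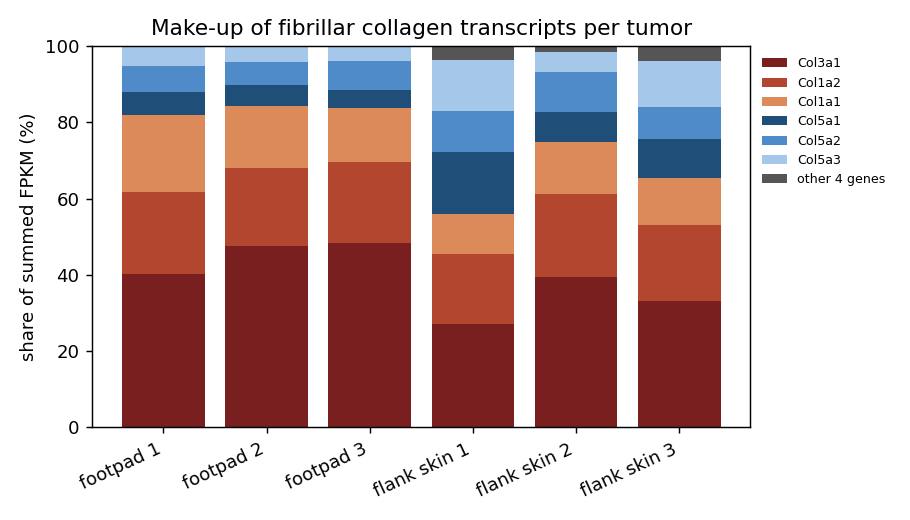
Share of each gene in the summed FPKM of the 10 fibril-forming collagens, 1 bar per tumor, adding up to 100%. Red shades are type III and type I, blue shades type V and grey the other 4 genes; the red part reaches 81.9% to 84.4% in footpad tumors and 56.0% to 74.8% in flank tumors.

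By mean FPKM the order in the footpad was Col3a1, Col1a2, Col1a1, Col5a2, Col5a1, Col5a3, Col27a1, Col11a1, Col11a2 and Col24a1. Among neighbours in this order, the ranges over tumors overlapped for Col5a2 and Col5a1 and for Col27a1 and Col11a1. In the flank the first 6 genes stood in the same order, but there the ranges of all neighbours among these 6 overlapped. Col27a1, which followed Col5a3 in the footpad, came after Col11a1 and Col11a2 in the flank, where its highest tumor, at 0.187 FPKM, was below the lowest for Col11a2, at 0.340 FPKM.

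Ratios of chains within a tumor do not depend on its depth. For each of 8 pairs the log2 ratio of counts (each with 0.5 added) was compared between the sites by a two-sided exact permutation test, for which 3 against 3 tumors allow no p under 0.1. Within type I, the FPKM ratio of Col1a1 to Col1a2 was 0.948, 0.795 and 0.671 in the footpad tumors and 0.579, 0.622 and 0.625 in the flank tumors. Every footpad value was above every flank value, and the log2 ratio was higher by 0.39 with a standard error of 0.15 (exact permutation p = 0.1, 0.267 after Benjamini-Hochberg adjustment over the 8 pairs). The ratio of Col3a1 to Col1a1 showed no such shift, at 2.78 ± 0.722 in the footpad and 2.70 ± 0.174 in the flank in FPKM (SD, n = 3). The difference on the log2 scale was 0.01 with a standard error of 0.24 (exact permutation p = 1). Col3a1 over Col1a2 was not among the 8 pairs. In edgeR the log2 fold change between sites was 3.74 for Col1a2 and 4.08 for Col3a1.

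Type V was lower relative to type I in the footpad tumors. The FPKM ratio of Col5a1 to Col1a1 was 0.298, 0.328 and 0.324 in the footpad tumors and 1.52, 0.577 and 0.819 in the flank tumors. In flank tumor 1 Col5a1, at 3.16 FPKM, thus exceeded Col1a1 but not Col1a2, at 3.58 FPKM. All footpad values of the ratio of Col5a1 to Col1a1 were below all flank values, with a log2 difference of -1.49 and a standard error of 0.41 (exact permutation p = 0.1, adjusted p = 0.267). Within type V, Col5a1 over Col5a2 was 0.786 ± 0.156 in the footpad and 1.17 ± 0.386 in the flank in FPKM (SD, n = 3), with overlap and a log2 difference of -0.53 with a standard error of 0.35 (exact permutation p = 0.3). Col5a3 over Col5a1 was 0.779 ± 0.0289 and 0.901 ± 0.253, and its log2 difference of -0.19 had a standard error of 0.23 (exact permutation p = 0.7).

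The type XI chains and the pair of Col24a1 and Col27a1 gave wider ratios. Col11a1 over Col11a2 was 1.79, 3.03 and 4.71 in FPKM in the footpad tumors and 0.718, 2.15 and 1.15 in the flank tumors, with overlap through flank tumor 2 and a log2 difference of 1.27 with a standard error of 0.59 (exact permutation p = 0.2, adjusted p = 0.4). Col11a1 over Col5a1, the chain it can replace, was 0.0206, 0.0126 and 0.0300 in the footpad tumors and 0.0873, 0.105 and 0.197 in the flank tumors. These did not overlap, and the log2 difference was -2.62 with a standard error of 0.51 (exact permutation p = 0.1, adjusted p = 0.267). Col24a1 over Col27a1 rested on few reads, with a log2 difference of -0.21 and a standard error of 1.36 (exact permutation p = 0.9). It moved to -1.19 with 5 in place of 0.5 added to each count and to -1.52 with FPKM + 0.1.

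**Figure D4:**
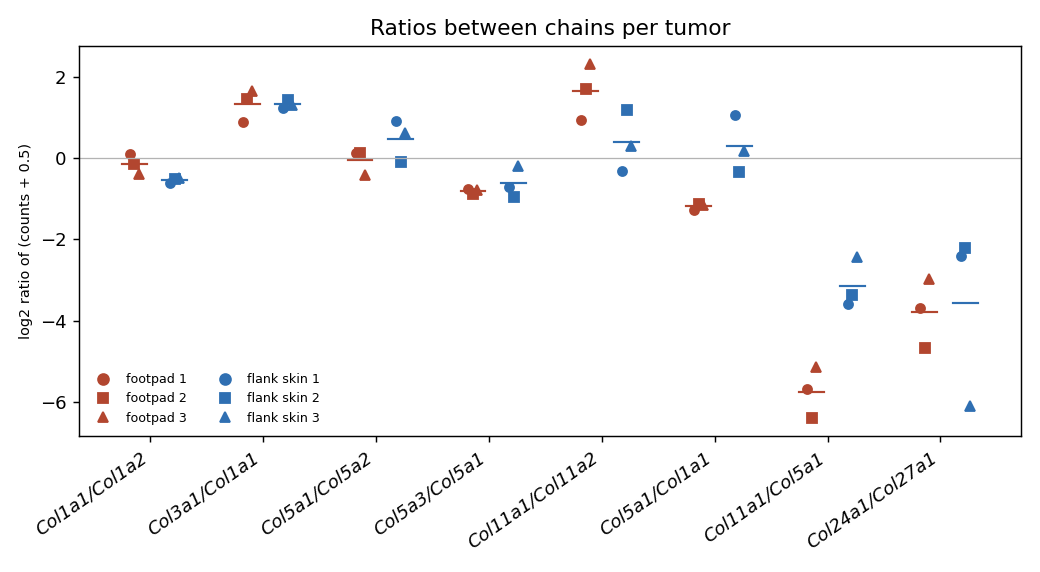
Log2 ratio of the counts of 2 genes in each tumor, with 0.5 added to each count; symbols are the 3 tumors of each site and short lines the site means. Footpad and flank tumors are apart for Col1a1/Col1a2, Col5a1/Col1a1 and Col11a1/Col5a1 and overlap for the other 5 pairs.

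Markers of fibroblasts moved with the collagens. The summed CPM of 11 fibroblast genes that are not collagens, among them Pdgfra and Dcn, was 170.5, 149.6 and 217.9 in the footpad tumors and 8.54, 37.9 and 10.4 in the flank tumors, and was highest of its site in footpad tumor 3 and flank tumor 2, as was the CPM of 7 members, among them Col11a1 and Col24a1, which were not called. All 11 had positive log2 fold changes, with a median of 3.24, and 8 were called higher in edgeR, as were 2.89% of all tested genes. Pdgfra was not among these 8 (edgeR, adjusted p = 0.0848). The summed marker level was higher in the footpad by 3.56 on the log2 scale with a standard error of 0.69 (exact permutation p = 0.1). Its part in the collagen results was not tested, but each gene was also expressed relative to it.

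Relative to these markers the genes differed in sign. None could pass an adjusted p of 0.05 on this scale, as the exact permutation test allows no p under 0.1 with 3 against 3 tumors. The log2 level over the marker sum of Col1a1 was 2.01, 1.86 and 1.57 in the footpad tumors and 0.82, 0.97 and 0.94 in the flank tumors, a difference of 0.90 with a standard error of 0.14 (exact permutation p = 0.1). For Col1a2 the difference was 0.51 with a standard error of 0.03, and for Col3a1 it was 0.91 with a standard error of 0.16 (exact permutation p = 0.1 for each, 0.167 after adjustment over the 10 genes). For these 3 genes every footpad tumor was above every flank tumor also on this scale. The type V genes overlapped between the sites: the difference was -0.06 for Col5a2 with a standard error of 0.15, -0.59 for Col5a1 with 0.38 and -0.78 for Col5a3 with 0.47 (exact permutation p = 0.7, 0.3 and 0.3). The difference was -3.21 for Col11a1, -4.42 for Col11a2 and -2.23 for Col24a1, each with all footpad tumors below all flank tumors (exact permutation p = 0.1), and -0.98 for Col27a1, with overlap (exact permutation p = 0.2). Since the marker sum itself was higher by 3.56, a gene with equal CPM at both sites would stand as far below 0 here. With 1 CPM in place of 0.1 added, the difference was -3.16 for Col24a1 and -1.76 for Col27a1, and with FPKM + 0.1 it was -3.21 and -1.69.

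**Figure D5:**
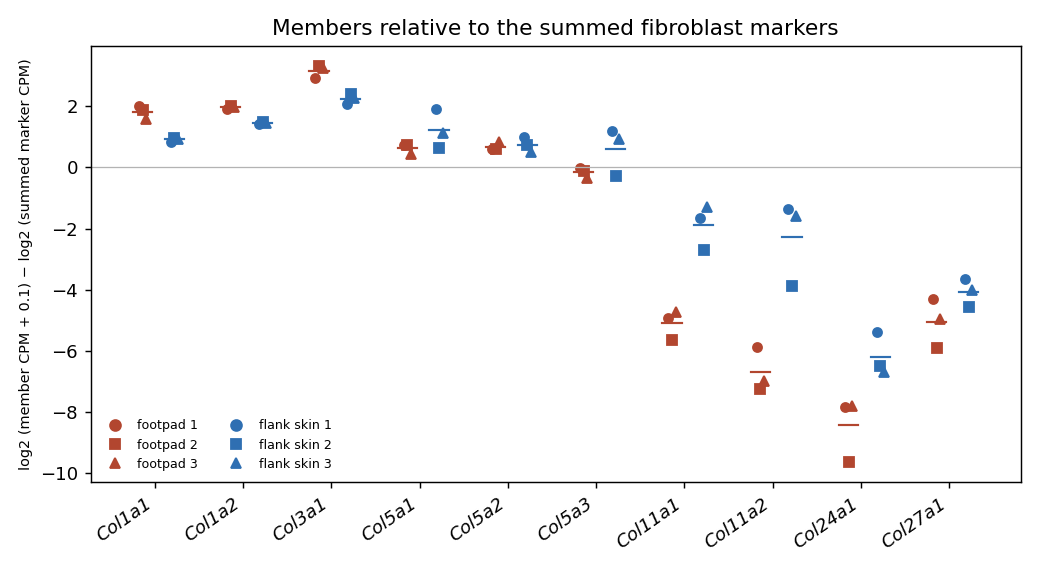
Log2 of the CPM of each gene (with 0.1 added) minus log2 of the summed CPM of 11 fibroblast markers, per tumor; symbols are the 3 tumors of each site and short lines the site means. The footpad tumors lie above the flank tumors for Col1a1, Col1a2 and Col3a1, overlap with them for the type V genes and Col27a1, and lie below them for Col11a1, Col11a2 and Col24a1.

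Other cell types were read from their own markers, as summed CPM in the lowest and highest tumor of each site. Tendon markers were at 37.5 to 187.0 in the footpad and 0 to 8.50 in the flank, nearly all from Thbs4, while the tendon-defining Scx was at most 0.117 CPM and Tnmd at most 0.438 CPM. Bone markers were at 5.43 to 12.1 against 1.28 to 2.55, with 1 of 4 tested called higher and the bone-defining Ibsp at 0 in every tumor. The bone sum came mostly from Runx2, the gene called, with means of 7.04 CPM in the footpad and 1.14 CPM in the flank. Mural markers (376 to 404 against 210.3 to 265.0, 2 of 5 called higher) and endothelial markers (120.8 to 190.2 against 63.1 to 85.9, 3 of 6) were also higher in their sums without overlap. Most of the mural sum came from Mcam, with means of 281.7 CPM in the footpad and 173.8 CPM in the flank. The mural genes Rgs5 and Myh11 overlapped between the sites and were not called. Macrophage markers overlapped, at 81.0 to 98.2 against 21.1 to 82.1, with 1 of 5 called higher. Keratinocyte markers (5.51 to 428.3 against 0.103 to 7.09) and muscle markers (35.9 to 939.3 against 8.76 to 181.9) were highest in footpad tumor 2, with none called. Cartilage markers (59.9 to 75.6 against 102.3 to 284.8) and adipocyte markers (13.7 to 25.9 against 28.0 to 41.1) were lower in the footpad in their sums, none of them called. The cartilage sum came mostly from Hapln1. Schwann cell markers (241.0 to 250.9 against 204.5 to 281.6) and melanocyte markers (9802 to 17943 against 14350 to 24942) overlapped, with none called, so that the RNA of each tumor held the melanocyte genes its label implies. Without footpad tumor 2 the same 7 collagens were called higher in edgeR. The part of these cell types in the collagen results was not tested.

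The genes that modify, cut, crosslink and bind collagen were read from 6 lists with 56 genes, all tested. Of these, 14 were called higher in edgeR and none lower, and their median log2 fold change was 0.59. The calls were not spread evenly over the lists. Among 18 genes of synthesis in the endoplasmic reticulum (hydroxylases, chaperones and their partners) none was called by edgeR in either direction. Their median log2 fold change was -0.02, and 8 were positive. Plod2, which hydroxylates lysines of the ends of the chains, was lower in the footpad at 138.2 ± 15.3 against 272.7 ± 30.8 CPM (SD, n = 3), with a log2 fold change of -0.98 and a standard error of 0.15, just short of the 2-fold limit (edgeR, adjusted p = 0.0213). P3h4, a partner of the hydroxylases, had a log2 fold change of 1.74 (edgeR, adjusted p = 0.0608). In DESeq2 it was past both thresholds, with the same log2 fold change of 1.74 (adjusted p = 0.00293).

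Outside the cell, the list of procollagen processing had 3 of 7 genes called higher and a median log2 fold change of 2.04. Adamts14, which removes the amino end of procollagen, averaged 23.7 ± 4.37 CPM in footpad and 3.77 ± 1.59 CPM in flank tumors (SD, n = 3), a log2 fold change of 2.65 with a standard error of 0.32 (edgeR, adjusted p = 0.0141). Bmp1, which removes the carboxyl end, was at 64.2 ± 7.60 and 28.8 ± 3.92 CPM (SD, n = 3), with a log2 fold change of 1.16 and a standard error of 0.16 (edgeR, adjusted p = 0.0154). Of 5 crosslinking enzymes 1 was called higher, with a median of 0.59: Loxl1 was at 23.1 ± 3.10 and 1.78 ± 1.44 CPM (SD, n = 3), with a log2 fold change of 3.70 (edgeR, adjusted p = 0.0234). Lox itself had 121.1, 97.2 and 125.2 CPM in footpad tumors against 0.811, 13.4 and 0.735 CPM in flank tumors, and missed the threshold in edgeR (adjusted p = 0.0592) but not in DESeq2 (adjusted p = 0.00257).

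Proteins that sit on collagen fibrils gave the most calls, 9 of 13, all higher, with a median log2 fold change of 2.63; Dcn and Lum of this list are also among the fibroblast markers. Fn1, the fibronectin gene, was at 1084 ± 302.4 CPM in the footpad and 229.4 ± 36.1 CPM in the flank (SD, n = 3), a log2 fold change of 2.24 with a standard error of 0.24 (edgeR, adjusted p = 0.0105). Bgn, the proteoglycan biglycan, had a log2 fold change of 3.30 with a standard error of 0.55 (edgeR, adjusted p = 0.0253). Of 8 collagen receptors 1 was called higher, Mrc2, an uptake receptor for collagen, with a log2 fold change of 3.09 (edgeR, adjusted p = 0.0365), and the median was 0.05. Ddr1, a receptor kinase for collagen, had a log2 fold change of 0.35 (edgeR, adjusted p = 0.112). None of 5 degrading enzymes was called by edgeR, with a median of 1.64. Mmp2 had a log2 fold change of 1.65 (edgeR, adjusted p = 0.0994) and Mmp8 one of 3.55 (edgeR, adjusted p = 0.164). In DESeq2 Mmp2 was past both thresholds (log2 fold change 1.65, adjusted p = 0.00520) and Mmp8 was not (adjusted p = 0.171). The count of 14 fell to 1 without footpad tumor 1, 0 without footpad tumor 3, 5 without flank tumor 1 and 0 without flank tumor 3. In the same fits 0.145%, 0%, 1.3% and 0.201% of all tested genes were called higher, against 2.89% with all tumors.

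The genes whose pattern over the 6 tumors was most like that of type I and III collagen were ranked by the root mean square difference of log2 CPM, each centred on its mean, from the mean profile of Col1a1, Col1a2 and Col3a1. Among 17209 genes, the nearest outside the family were Medag, Postn, Dio3, Lpar1, Arhgap44, Rbp4, Fbn1 and Dcn, at distances of 0.19 to 0.27 log2 units. Postn, the periostin gene, had 355.3, 239.7 and 502.5 CPM in footpad tumors against 8.71, 46.0 and 9.95 CPM in flank tumors, and Fbn1, the fibrillin gene, at 199.5, 265.9 and 236.0 against 8.59, 39.1 and 9.57 CPM. Both had flank tumor 2 as the highest of its site, as did Col1a1, Col1a2 and Col3a1, whose profile they were picked to resemble. Dio3, Arhgap44 and Rbp4 stayed under 1 CPM in all tumors and had no reads in flank tumors 1 and 3, so that their distances rest on few counts. Within the family, Col5a2 was the closest to the type I and III profile, at 0.46 and rank 28, followed by Col5a1 at 0.80 and rank 143, Col5a3 at 0.93 and rank 218 and Col27a1 at 1.01 and rank 294. Col24a1 had rank 1426, Col11a1 rank 3526 and Col11a2 rank 16183. The distances describe 6 tumors that share their sites and depth and were given no test.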

How the data were processed

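RNA-seq libraries of 3 footpad and 3 flank tumors were grouped by their labels. Per the labels and methods, reads were checked with FastQC 0.11.7, trimmed with Trimmomatic and aligned with HISAT2 2.1.0 to mm10; the counting program and its use of strand are not given in the sources used here. The authors deposited a table of unnormalized read counts and, for each tumor, FPKM values, which they scaled for transcript length and depth. Depth was 46529649 to 66364366 counts per tumor, at which 3 counts equal 0.0438 to 0.0673 CPM, counting error only. The common biological coefficient of variation was 0.338, which exceeds counting error for all but the lowest genes.

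The whole count table was fitted by edgeR 4.0.16 under R 4.3.3 (TMM scaling, filterByExpr, glmQLFit and glmQLFTest), with Benjamini-Hochberg adjustment over 17210 genes. Standard errors were taken as the log2 fold change divided by the square root of F. Chain ratios and levels relative to markers were compared in Python 3.11.15 with scipy 1.17.1 by exact permutation tests. Scripts were tested on simulated data. The members, the marker and pathway lists and the ratios were chosen with earlier results of these data known. Named genes were the 10 members, the 2 genes of smallest p in each pathway list with any called lower, the 8 genes nearest in profile, and marker lists by their sums and by markers at 0 in every tumor. Beyond this rule, Pdgfra, Scx, Tnmd, Thbs4, Runx2, Mcam, Rgs5, Myh11, Hapln1, Sox9, Acan, Matn1, Cnmd, Chad, Lox values per tumor and Col2a1 were added after their values were seen.

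Alternatives were DESeq2 1.42.0, no filter on low counts, 10 counts in every tumor, upper-quartile scaling, limma 3.58.1 on log2(FPKM + 1) and log2(FPKM + 0.1), the replicate number as a block, and leaving out each tumor. Coordinates and promoters are those of RefSeq on GRCm38.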

Additional observations from a re-analysis of the deposited data

How the results depend on the processing

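The 7 members called higher stayed at 7 with DESeq2, without a filter on low counts, with 10 counts in every tumor (9 members tested) and in limma on log2(FPKM + 0.1) (9 tested), and were 6 with upper-quartile scaling and in limma on log2(FPKM + 1) (9 tested). Leaving out 1 tumor gave 0 to 7 members and 0 to 16 of the 56 pathway genes, against 14 with all tumors. Of all tested genes 0% to 3.62% were called higher in these fits, against 2.89% with all tumors. DESeq2 called 22 pathway genes. Without footpad tumor 3 edgeR called none of the whole table. On all tumors DESeq2 called 7 members and 6.71% of all tested genes higher. Same-numbered tumors did not deviate together (r = 0.05, -0.10 and -0.11), which cannot show whether they shared a host. With the replicate number as a block, edgeR called 0 members, 0 pathway genes and 0 genes of the whole table. The smallest adjusted p over all tested genes in edgeR was then 0.0552. The cause was not tested. Over the fits without 1 tumor, the log2 difference between sites changed sign for Col3a1/Col1a1 (-0.16 to 0.23), Col5a3/Col5a1 (-0.35 to 0.025), Col24a1/Col27a1 (-1.48 to 0.48) and Col5a2 relative to fibroblast markers (-0.18 to 0.054), none of which was past a threshold with all tumors. With 3 tumors a site the permutation tests cannot go below 0.1, and depth limits Col24a1 most, with 0 to 43 reads per tumor.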

Other observations

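Col2a1 (gene 12824, chr15:97975602-98004724), the fibrillar collagen of cartilage, was not among the 10 genes and is named here after its values were seen. It was at 1.12, 1.03 and 0.949 FPKM in the footpad tumors and at 7.56, 5.86 and 7.08 FPKM in the flank tumors. Every footpad tumor was below every flank tumor, the reverse of types I, III and V, and the log2 fold change was -2.71 with a standard error of 0.22 (edgeR, adjusted p = 0.00677). The call was lost without footpad tumor 3 (edgeR, adjusted p = 0.0541), and over the fits without 1 tumor the log2 fold change was between -2.88 and -2.58. In flank tumors 1 and 3 Col2a1 was above Col1a1, at 2.07 and 2.98 FPKM, and in flank tumor 2 it was below Col1a1, at 12.2 FPKM. The sum of the cartilage markers was also lower in the footpad, mostly through Hapln1, with 51.5, 64.5 and 69.2 CPM in footpad against 86.7, 239.9 and 281.0 CPM in flank tumors. Sox9 had a log2 fold change of -0.04 with a standard error of 0.61. Acan, Matn1, Cnmd and Chad were at most 0.408 CPM in any tumor, and Acan was higher in the footpad by its mean, at 0.175 against 0.0380 CPM. The part of cartilage cells in the difference in Col2a1 was not tested.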
